A study of Homo sapiens with 6 samples.

Results

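ATF4 is the transcription factor through which cells answer amino acid shortage and other stresses that phosphorylate the translation factor eIF2. Translation in general is then slowed while that of ATF4 rises, and with C/EBP partners ATF4 switches on genes for amino acid synthesis and uptake, for charging of tRNAs and, when stress lasts, for growth arrest and death. The genes described here are 27 listed targets and regulators of this response and, as a separate class, the aminoacyl-tRNA synthetases, the enzymes that join each amino acid to its tRNA. Members were found by gene symbol in the probe annotation, and the brightest probe set was taken per gene. Of the 27, 18 had a named probe set, and with 17 synthetases this gave 35 genes of 14884 with a named probe set. MTHFD2, ALDH1L2, ALDH18A1, GPT2, CHAC1, CEBPB, CEBPG, NUPR1 and XPOT were not analysed here, and all 17 synthetases are cytosolic forms, of which GARS1 and KARS1 also serve mitochondria.

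The cells were MDA-MB-231-Luc-D3H1, a luciferase-carrying derivative of the triple-negative, mesenchymal breast cancer line MDA-MB-231. Stable lines carried shRNA2 (labelled shSiA) or shRNA1 (labelled sh681), which target the long noncoding RNA LincIN, or the empty GFP vector, with 2 arrays for each of the 3 groups. The retroviral backbone is pMKO.1-GFP, the control holds no hairpin, and whether a line was a pool or a clone is not given in the sources used here, so effects of a line and of its shRNA cannot be told apart. RNA of whole cultures was measured, in which fewer expressing cells and less RNA per cell cannot be told apart.

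Each of the 6 Affymetrix Human Gene 2.0 ST arrays holds 53617 log2 signals between 1.79 and 14.83, with array medians from 6.12 to 6.30, and no detection call. Signals of different genes are not compared with each other, since probes differ in brightness. Correlations between arrays ran from 0.961 to 0.988. LincIN has no named probe set, so the knockdown was not checked on these arrays. VIM, CD44, AXL and EGFR, listed as present in this line, had log2 signals from 10.60 to 13.14 on the arrays. The hormone receptor genes ESR1 and PGR, listed as low or absent, were between 4.65 and 6.17. PECAM1, an endothelial marker, was between 5.12 and 5.65. GATA3 and EPCAM, also listed as low or absent in this line, were above the median of every array. GATA3 was between 7.78 and 9.02. EPCAM, an epithelial surface marker, was at 9.02 and 8.94 with shRNA2, 7.46 and 8.18 with shRNA1, and 7.91 and 8.58 in vector cells. Its log2 difference between shRNA2 and shRNA1 was 1.16 (adjusted p = 0.166 in limma, 0.0348 with the replicate block), and its part in the results below was not tested.

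The first question was whether knockdown with shRNA2 moved the response relative to vector cells. Of the 18 ATF4 targets, 5 rose and 0 fell at an adjusted p under 0.05 (limma, Benjamini-Hochberg over 16098 probe sets). Of all probe sets tested, 1.07% were called higher and 1.50% lower. The members that rose make asparagine, serine and cysteine. The median log2 fold change of the class was 0.14, against -0.04 over all probe sets. At an unadjusted p under 0.05 in limma, 6 of the 18 were higher and 1 lower, beside 7.49% and 11.1% of all probe sets.

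ASNS, asparagine synthetase, had log2 signals of 10.18 and 10.28 with shRNA2, 8.49 and 8.78 with shRNA1, and 7.86 and 8.52 in vector cells. The shRNA2 arrays were the highest and lay apart from the other 4, while the shRNA1 and vector arrays overlapped. With shRNA2 its log2 fold change over vector was 2.04 (standard error 0.24, adjusted p = 0.00861, limma), a 4.10-fold higher signal. The signs of all comparisons with vector in this report are shRNA over vector, as the array labels define the groups. They are opposite to those in the study's table of gene hits, which heads its ratios the same way. Since LincIN has no named probe set, the direction could not be checked on these arrays, and it rests on the labels. With shRNA1 the log2 fold change of ASNS was 0.44 (95% interval -0.12 to 1.00, adjusted p = 0.548).

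The ASNS promoter carries a known binding site for ATF4 and C/EBP proteins, and its core is shown because ASNS had the largest change of the 35 genes with shRNA2. The string searched was TGATGNAA, on both strands, in RefSeq windows (GRCh38.p14) from 250 bases before to 50 bases after each annotated start. In ASNS a match starts 68 bases before the start, at chr7:97872458-97872487 on the minus strand with its flanks, with the match in capitals:
ASNS: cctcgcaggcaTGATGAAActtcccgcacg
Of the 15 ATF4 targets with a window, 2 held a match. The other was ATF3, whose match starts 191 bases before an annotated start. A match was found in 4.46% of the 27305 genes with a window, or 3.62% of the 35116 windows. A match is a string of letters and not a measured binding site, and sites outside these windows were not searched.

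The serine pathway takes a glycolytic intermediate to serine in the order PHGDH, PSAT1 and PSPH, and all 3 of its enzymes rose with shRNA2. PHGDH, the dehydrogenase that opens the pathway, was at 9.80 and 9.64 with shRNA2, 9.06 and 8.53 with shRNA1, and 8.17 and 7.99 in vector cells. No array of 1 group overlapped another, with shRNA2 highest and shRNA1 between. The log2 fold change of shRNA2 over vector was 1.64 (standard error 0.21, adjusted p = 0.0122), or 3.12-fold. With shRNA1 it was 0.71 (95% interval 0.23 to 1.20), which did not pass the test over all probe sets (adjusted p = 0.196).

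PSAT1, the aminotransferase of the second step, was at 12.49 and 12.56 with shRNA2, 11.55 and 11.85 with shRNA1, and 11.28 and 11.66 in vector cells. PSPH, the phosphatase that releases serine, was at 10.21 and 10.31 with shRNA2, 9.59 and 9.69 with shRNA1, and 9.29 and 9.55 in vector cells. For both genes the shRNA2 arrays stood above the other 4. Over vector, the log2 fold changes with shRNA2 were 1.05 for PSAT1 (standard error 0.19, adjusted p = 0.041) and 0.84 for PSPH (standard error 0.16, adjusted p = 0.0471). With shRNA1 they were 0.23 (95% interval -0.22 to 0.68) and 0.22 (-0.16 to 0.60), and neither passed.

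CTH, cystathionine gamma-lyase, makes cysteine in the last step of transsulfuration. It was at 9.73 and 9.72 with shRNA2, 7.78 and 8.24 with shRNA1, and 8.49 and 8.61 in vector cells. The arrays of the 2 shRNAs thus lay on opposite sides of the vector arrays. The log2 fold change was 1.18 with shRNA2 (standard error 0.19, adjusted p = 0.0269) and -0.54 with shRNA1 (95% interval -0.98 to -0.10, adjusted p = 0.287). CBS, which makes the cystathionine that CTH cleaves, was near the array median, between 6.14 and 6.48 on all 6 arrays, and its groups overlapped. Its log2 fold change with shRNA2 was -0.03 (95% interval -0.42 to 0.37).

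Neither of the next enzymes passed the test with either shRNA. SHMT2, which passes a carbon from serine to folate in mitochondria, was at 8.71 and 8.76 with shRNA2, 8.73 and 8.54 with shRNA1, and 8.89 and 9.04 in vector cells. Both shRNA groups lay just below vector, with log2 fold changes of -0.23 (95% interval -0.59 to 0.13) and -0.33 (-0.69 to 0.03) that did not pass. PYCR1, which makes proline in mitochondria, stayed between 8.58 and 8.74 on the 6 arrays, and its value with shRNA2 was 0.07 (-0.26 to 0.41).

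**Figure D1:**
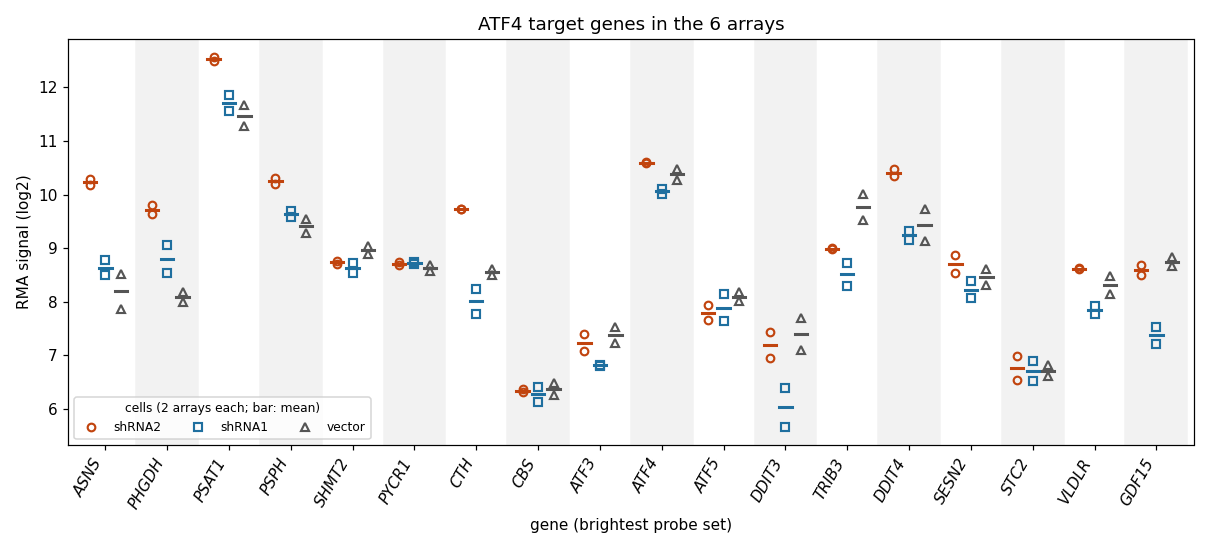
RMA log2 signal (y axis) of the 18 ATF4 target genes (x axis) on each of the 6 arrays, as points for shRNA2, shRNA1 and vector cells with a bar at the mean of the 2 arrays. The shRNA2 points of ASNS (10.18 and 10.28) and CTH (9.73 and 9.72) stand above all others of their gene, and the shRNA1 points of GDF15 (7.53 and 7.22) below.

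None of the stress effectors passed the test with shRNA2 without the replicate block. DDIT4, an inhibitor of mTORC1 induced by stress, was at 10.35 and 10.47 with shRNA2, 9.15 and 9.33 with shRNA1, and 9.14 and 9.73 in vector cells. Its shRNA2 arrays were above the rest, but its log2 fold change over vector of 0.98 (standard error 0.22) had an adjusted p of 0.0692, or 0.0166 when replicate numbers were blocked. TRIB3, a pseudokinase that restrains ATF4 in a feedback loop, was at 9.002 and 8.981 with shRNA2, 8.73 and 8.29 with shRNA1, and 10.02 and 9.53 in vector cells, so all 4 shRNA arrays were below vector. With shRNA2 its log2 fold change was -0.78 (adjusted p = 0.121, or 0.0317 with the block). SESN2, a stress-induced inhibitor of mTORC1, was at 0.23 (95% interval -0.24 to 0.71). Its signal was 8.88 and 8.53 with shRNA2 and 8.62 and 8.32 in vector cells, which overlap.

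ATF4 itself, whose activity is set mainly by translation, was at 10.58 and 10.60 with shRNA2, 10.01 and 10.11 with shRNA1, and 10.48 and 10.28 in vector cells. The shRNA2 arrays were above and the shRNA1 arrays below vector, each by a small amount. The log2 fold changes of 0.21 (95% interval -0.14 to 0.57) with shRNA2 and -0.32 (-0.68 to 0.04) with shRNA1 did not pass. DDIT3, which encodes the proapoptotic factor CHOP, was at 7.43 and 6.96 with shRNA2, 6.40 and 5.67 with shRNA1, and 7.69 and 7.11 in vector cells. Its shRNA2 and vector arrays overlapped, at a log2 fold change of -0.21 (-0.93 to 0.52). The related factors ATF3 and ATF5 had values of -0.14 (-0.57 to 0.28) and -0.31 (-0.81 to 0.20) with shRNA2, and neither passed. ATF3 was at 7.09 and 7.39 with shRNA2 and 7.23 and 7.54 in vector cells, and ATF5 at 7.65 and 7.93 with shRNA2 and 8.01 and 8.19 in vector cells.

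The second question was the same for shRNA1. Of the 18 ATF4 targets, 0 rose and 2 fell at an adjusted p under 0.05, namely GDF15 and TRIB3, against 0.497% of all probe sets called higher and 1.37% called lower. The class median was -0.22, against 0.05 over all probe sets, and 13 of the 18 values were below 0. GDF15, a secreted stress cytokine of the TGF-beta family, was at 8.69 and 8.50 with shRNA2, 7.53 and 7.22 with shRNA1, and 8.67 and 8.83 in vector cells. Only the shRNA1 arrays stood apart. Its log2 fold change was -1.38 with shRNA1 (standard error 0.17, adjusted p = 0.0118), which is 2.59-fold lower, and -0.15 with shRNA2 (95% interval -0.56 to 0.26). TRIB3 had a log2 fold change of -1.26 with shRNA1 (standard error 0.22, adjusted p = 0.0424).

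DDIT3 had a log2 fold change of -1.37 with shRNA1 (standard error 0.31), between those of GDF15 and TRIB3, and did not pass the test. Its adjusted p was 0.0997, and 0.00227 with the block. Replicate 2 was below replicate 1 in each group for this gene, by 0.48 with shRNA2, 0.72 with shRNA1 and 0.58 in vector cells. ATF3 (-0.57, adjusted p = 0.239) and VLDLR, a lipoprotein receptor (-0.47, adjusted p = 0.314), had both shRNA1 arrays below both vector arrays without passing. VLDLR was at 8.61 and 8.63 with shRNA2, 7.77 and 7.92 with shRNA1, and 8.15 and 8.48 in vector cells. DDIT4, SESN2, ATF5 and STC2, a secreted glycoprotein, were between -0.24 and 0 with shRNA1, and their groups overlapped. STC2 was at 0.06 with shRNA2 (95% interval -0.45 to 0.56).

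Non-overlap of the 2 arrays on each side is frequent in these data and carries little weight on its own. With shRNA2, 8 ATF4 targets had both arrays above vector and 3 below, while 21.6% and 30.6% of all probe sets did so. For shRNA1 the counts were 3 above and 8 below, beside 21.7% and 15.0% of all probe sets. Both comparisons use the same vector arrays.

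As limits of these calls, the call of ASNS ended without either shRNA2 array. Those of PHGDH, PSAT1 and CTH ended without any 1 of the shRNA2 or vector arrays. Those of PSPH, and of TRIB3 with shRNA1, ended without any 1 of the 6 arrays. GDF15 with shRNA1 lost its call without the second array of shRNA1 or of vector, or without either shRNA2 array. Such fits leave 1 group with a single array, and each also called fewer of all probe sets. The fall was steepest with shRNA2 when an shRNA2 array was left out. Log2 fold changes in these fits ran from 1.71 to 2.37 for ASNS, 1.55 to 1.73 for PHGDH and 0.86 to 1.25 for PSAT1. They ran from 0.71 to 0.97 for PSPH, 1.12 to 1.24 for CTH, -1.53 to -1.22 for GDF15 and -1.51 to -1.02 for TRIB3 with shRNA1. The calls of PSAT1, PSPH, CTH, GDF15 and TRIB3 also ended when all 53617 probe sets were tested. Those of PSPH, GDF15 and TRIB3 ended when only the 4 arrays compared were fitted. The methods' t-test ended all 7 calls. Its adjusted p was 0.305 for ASNS, 0.244 for PHGDH, 0.321 for PSAT1 and 0.309 for PSPH. It was 0.240 for CTH, 0.499 for GDF15 and 0.658 for TRIB3. The same test called only 2 of all named probe sets with shRNA2 and 1 with shRNA1, where limma called 414 and 301. The loss of calls under this test is therefore not particular to these 7 genes.

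**Figure D2:**
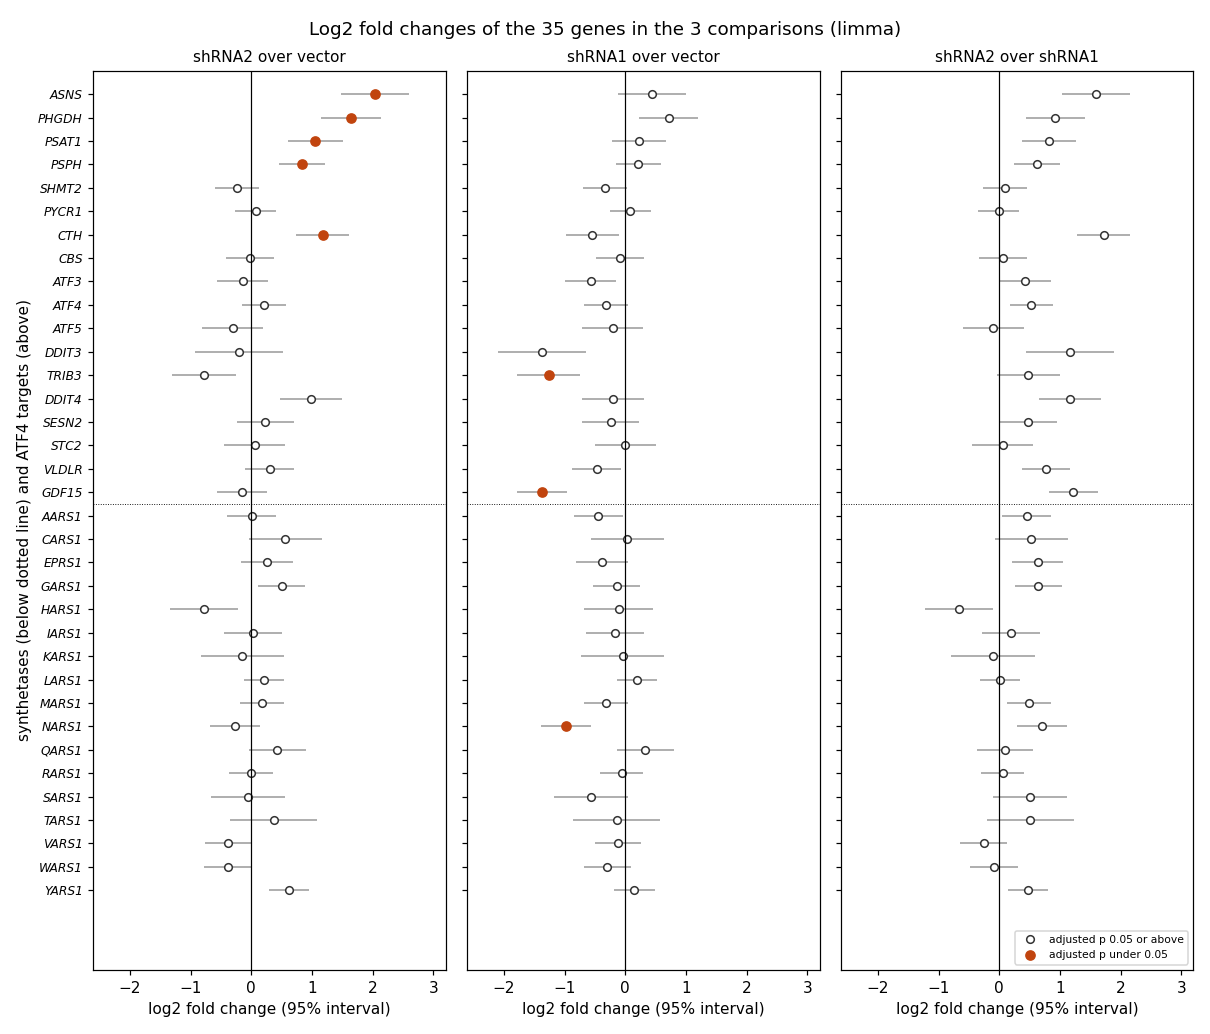
Log2 fold change (x axis, point) with its 95% interval (line) of the 35 genes (y axis) for shRNA2 over vector, shRNA1 over vector and shRNA2 over shRNA1, with filled points for an adjusted p under 0.05. Filled points are ASNS, PHGDH, PSAT1, PSPH and CTH on the left and TRIB3, GDF15 and NARS1 in the middle, and the right panel has 0.

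The shRNAs were then set directly against each other, since a call with only 1 of them does not show a difference. Of the 18 ATF4 targets, 0 passed an adjusted p under 0.05 in limma, as did 0% of all probe sets in the higher and 0.00621% in the lower direction. At an unadjusted p under 0.05, 12 were higher with shRNA2 and 0 lower, beside 5.42% and 10.2% of all probe sets. The methods' t-test called 0 as well, beside 2 of all probe sets. The class median was 0.58 higher with shRNA2, against -0.08 over all probe sets. Both shRNA2 arrays were above both shRNA1 arrays for 13 of the 18 and below for 0, beside 18.0% and 32.2% of all probe sets.

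CTH had the largest difference, a log2 value of 1.72 (95% interval 1.28 to 2.16, adjusted p = 0.0515). ASNS followed at 1.60 (1.04 to 2.15, adjusted p = 0.0701), GDF15 at 1.22 (0.81 to 1.63, adjusted p = 0.0612), DDIT4 at 1.17 (0.66 to 1.68, adjusted p = 0.0929) and DDIT3 at 1.16 (0.43 to 1.89, adjusted p = 0.174). The difference of GDF15 and DDIT3 lay in lower shRNA1 arrays, and that of ASNS and DDIT4 in higher shRNA2 arrays. PHGDH differed by 0.92 (0.43 to 1.41), PSAT1 by 0.82 (0.38 to 1.27), VLDLR by 0.77 (0.38 to 1.17), PSPH by 0.62 (0.24 to 1.00) and ATF4 by 0.53 (0.17 to 0.89), with adjusted p from 0.134 to 0.192. TRIB3 differed by 0.48 (-0.04 to 1.00).

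With replicate numbers blocked, 8 of the 18 were higher with shRNA2 and 0 lower, beside 1.04% and 1.26% of all probe sets. These were CTH (adjusted p = 0.011), ASNS (0.0116), DDIT3 (0.0165), GDF15 (0.0192), DDIT4 (0.0207), PHGDH (0.0309), PSAT1 (0.0394) and VLDLR (0.0462). The replicate differences on which this block rests correlated at only 0.150 between shRNA2 and shRNA1. Centring each array on its median moved the median of all probe sets to 0.03 in this comparison, and the class median to 0.68 for the ATF4 targets and 0.56 for the synthetases described next.

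Of the 17 synthetases, 0 passed the test in either direction with shRNA2, beside 1.07% of all probe sets called higher and 1.50% lower. At an unadjusted p under 0.05 in limma, 2 were higher and 1 lower, beside 7.49% and 11.1% of all probe sets. The methods' t-test called 0, beside 2 of all probe sets. With the block YARS1 alone rose, while 1180 of all probe sets were called, 507 of them higher. With shRNA1, 1 fell and 0 rose, beside 1.37% called lower and 0.497% higher of all probe sets. Between the shRNAs 0 passed in limma, beside 0% of all probe sets called higher and 0.00621% lower. The methods' t-test also called 0, beside 2 of all 16098 probe sets. At an unadjusted p under 0.05 in limma, 6 were higher with shRNA2 and 1 lower, beside the 5.42% and 10.2% of all probe sets. The class medians were 0.03 with shRNA2, -0.14 with shRNA1 and 0.46 for shRNA2 over shRNA1.

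NARS1, which charges the tRNA of asparagine, was the synthetase that fell with shRNA1. Its log2 signals were 11.71 and 11.75 with shRNA2, 11.17 and 10.88 with shRNA1, and 12.14 and 11.86 in vector cells. The shRNA1 arrays were the lowest, and those of shRNA2 also lay below vector. The log2 fold change was -0.97 with shRNA1 (standard error 0.18, adjusted p = 0.0454), or 1.96-fold lower, and -0.27 with shRNA2 (95% interval -0.68 to 0.15). Its call ended without any 1 of the 6 arrays (adjusted p up to 0.187), with quantile normalization (0.0589), with only the 4 arrays compared (0.168), when all 53617 probe sets were tested (0.163) and by the methods' t-test (0.614). With shRNA1 the methods' t-test called only 1 of all named probe sets, where limma called 301. ASNS, which makes the amino acid that NARS1 uses, was at 0.44 with shRNA1 in these arrays.

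YARS1, the tyrosine enzyme, was at 9.34 and 9.42 with shRNA2, 8.89 and 8.93 with shRNA1, and 8.79 and 8.73 in vector cells. Its groups did not overlap, and its log2 fold change with shRNA2 was 0.62 (standard error 0.14, adjusted p = 0.074, or 0.0444 with the block). HARS1, the histidine enzyme, was at 7.94 and 8.30 with shRNA2, 9.05 and 8.53 with shRNA1, and 9.09 and 8.71 in vector cells. Its shRNA2 arrays were the lowest, at a log2 fold change of -0.78 (standard error 0.24, adjusted p = 0.145). The other 14 synthetases lay between -0.38 for WARS1 and 0.56 for CARS1 with shRNA2. With shRNA1 the 14 ran from -0.56 for SARS1 to 0.33 for QARS1.

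Both arrays of shRNA2 were above vector for 7 synthetases and below for 4, beside 21.6% and 30.6% of all probe sets. With shRNA1 the counts were 2 and 5, beside 21.7% and 15.0%. Between the shRNAs they were 9 higher and 2 lower, beside 18.0% and 32.2%. VARS1 and WARS1 have a second probe set each, which was dimmer and gave log2 fold changes of -0.48 and -0.03 with shRNA2 and -0.07 and -0.08 with shRNA1, and these did not pass either.

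**Figure D3:**
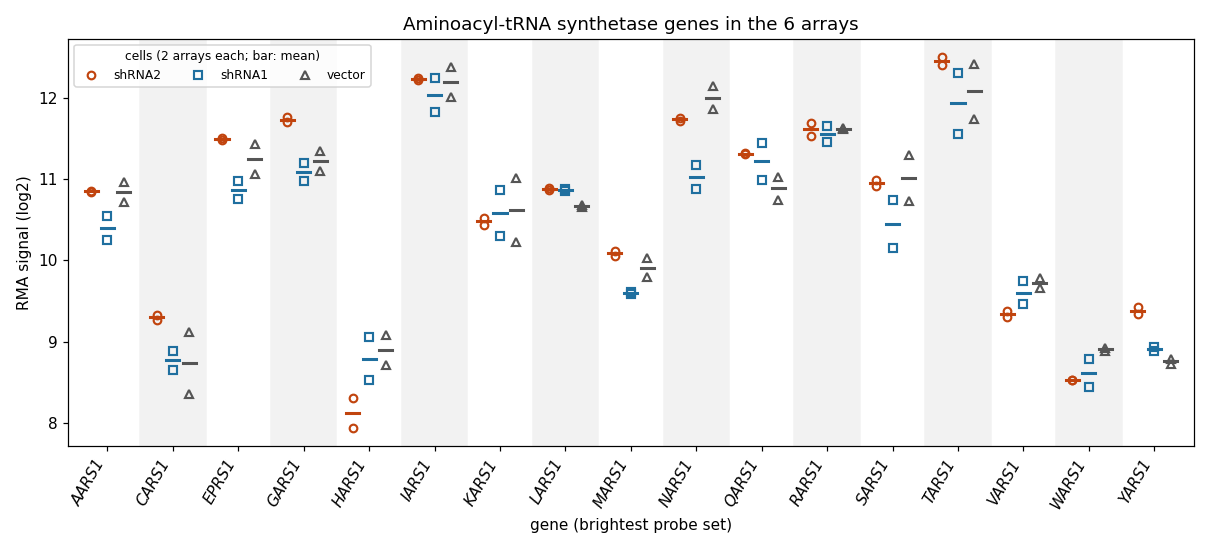
RMA log2 signal (y axis) of the 17 synthetase genes (x axis) on each of the 6 arrays, as points for shRNA2, shRNA1 and vector cells with a bar at the mean of the 2 arrays. The shRNA1 points of NARS1 (11.17 and 10.88) lie below the other 4, and the 2 vector points of TARS1 (11.73 and 12.42) and KARS1 (10.23 and 11.02) lie far apart.

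The promoter string described for ASNS was also looked for in the synthetases. Of the 14 with a window, 7 held a match (50%), beside the 4.46% of all genes with a window. They were AARS1, CARS1, GARS1, IARS1, MARS1, NARS1 and TARS1, and 6 of these 7 matches start within 33 bases of an annotated start. The exception was AARS1, at 187 bases before. The match of NARS1 is shown, as the synthetase that fell with shRNA1. It begins at base 15 of the transcript and lies with its flanks at chr18:57621804-57621833 on the minus strand, with the match in capitals:
NARS1: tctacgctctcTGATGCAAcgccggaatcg
In AARS1, CARS1, IARS1, MARS1 and TARS1 the same 8 letters stand on the other strand. For a gene with several starts a match in 1 window was counted. The log2 fold changes of these 7 genes ran from -0.27 to 0.56 with shRNA2 and from -0.97 to 0.03 with shRNA1, and NARS1 was the 1 of them that passed the test in a comparison.

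For several synthetases the replicate arrays differed as much as the group means, or more. TARS1, the threonine enzyme, was at 12.40 and 12.50 with shRNA2, 11.56 and 12.31 with shRNA1, and 11.73 and 12.42 in vector cells. Its replicate 2 was higher by 0.75 with shRNA1 and 0.68 in vector cells, but by only 0.10 with shRNA2. KARS1, the lysine enzyme, differed by 0.08 with shRNA2, 0.56 with shRNA1 and 0.79 in vector cells, in the same direction. SARS1, the serine enzyme, ran the other way, with replicate 2 lower by 0.07 with shRNA2, 0.59 with shRNA1 and 0.57 in vector cells. The arrays of shRNA2 differed by over 0.5 for 0 of the 17 synthetases, those of shRNA1 and of vector cells for 4 each.

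The ATF4 targets showed the same order, at 0, 3 and 3 of 18. Over all 16098 probe sets the shares past that difference were 4.26% with shRNA2, 17.7% with shRNA1 and 15.8% in vector cells. The closeness of the shRNA2 arrays is thus not particular to these genes, and the joint fit gives all 3 groups 1 common spread per gene.

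**Figure D4:**
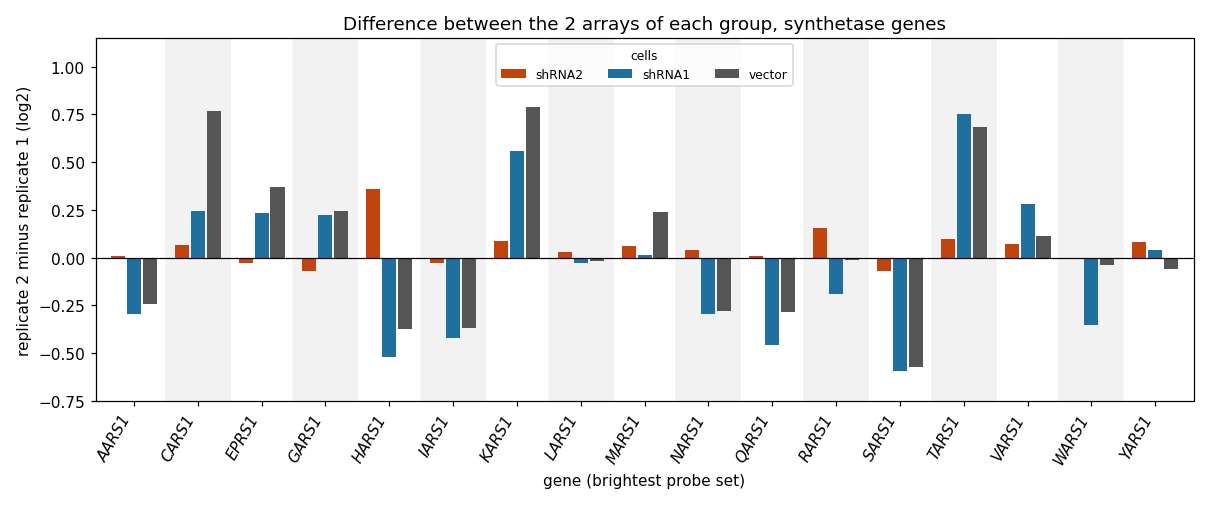
Replicate 2 minus replicate 1 in log2 signal (y axis, bars from 0) for the 17 synthetase genes (x axis), in shRNA2, shRNA1 and vector cells. Bars of shRNA1 and vector cells share a direction for TARS1 (0.75 and 0.68), KARS1 (0.56 and 0.79) and SARS1 (-0.59 and -0.57), while the shRNA2 bars stay within 0.36.

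Other genes around this response were described from lists of eIF2 kinases and phosphatase cofactors, amino acid transporters, endoplasmic reticulum chaperones, synthetase partners, and further enzymes of folate, serine, glutamate and proline metabolism. Of 58 listed genes, 23 had a named probe set, and none of these was an amino acid transporter. In limma 0 of the 23 passed in any of the 3 comparisons. Of all probe sets, 1.07% were called higher and 1.50% lower with shRNA2, and 0.497% and 1.37% with shRNA1. Between the shRNAs these shares were 0% and 0.00621%. At an unadjusted p under 0.05, 1 was higher and 3 lower with shRNA2, 1 higher and 1 lower with shRNA1, and 1 higher and 3 lower for shRNA2 over shRNA1. The shares of all probe sets higher and lower at that p were 7.49% and 11.1% with shRNA2, 6.0% and 6.08% with shRNA1, and 5.42% and 10.2% between the shRNAs. The median log2 fold changes of the 23 genes were -0.01, -0.02 and 0.02.

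Among the eIF2 kinases, EIF2AK3, which encodes the endoplasmic reticulum kinase PERK, had log2 fold changes of -0.53 with shRNA2 and -0.59 with shRNA1. EIF2AK4, which encodes the amino acid sensor GCN2, was at -0.31 and -0.15. The other measured kinases, EIF2AK1 and EIF2AK2, were at 0.22 and 0.18 with shRNA2 and at 0.11 and -0.02 with shRNA1. No eIF2 kinase passed with either shRNA. XBP1, a transcription factor of the unfolded protein response, was at 0.47 with shRNA2 and -0.18 with shRNA1, while the chaperone gene HYOU1 was at -0.68 and -0.21. HYOU1 and PRODH, which breaks down proline, were the 2 of the 23 that passed with the block, both lower with shRNA2 (adjusted p = 0.0362 and 0.0495). In that comparison the block called 1180 of all 16098 probe sets, 507 of them higher and the rest lower. Calls of 2 in 23 genes therefore do not set this list apart. PRODH, at -0.73 with shRNA2, was under 5.9 on every array.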

How the data were processed

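Total RNA was measured on 6 Affymetrix Human Gene 2.0 ST arrays (250 ng each). The authors made the deposited log2 values with the Affymetrix Expression Console and RMA (background correction, quantile normalization, summary per probe set); no version is given in the sources used here. The table holds 53617 probe sets. By the platform annotation, 1 gene symbol belongs to each of 16098 of them, several to 0, and 37519 are unnamed here. The 3 group means were fitted together in limma 3.58.1 (R 4.3.3) by lmFit and eBayes (3 residual and 4.16 prior degrees of freedom), adjusted by Benjamini-Hochberg over the 16098 at a threshold of 0.05. Intervals are 95% and come from the same fit. The study's methods name BRB-ArrayTools for the arrays without the test, and a 2-sample t-test among the tests for in vitro data, which was run as an alternative (the methods' t-test). The fit was tested on simulated data.

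The series text tells of 2 experiments without tying replicate numbers to them. Replicate differences correlated at 0.626 (shRNA1 and vector), 0.145 (shRNA2 and vector) and 0.150 (shRNA2 and shRNA1) over probe sets. The numbers were read as pairs on this ground, which is thin for shRNA2, and with the blocked calls already known; blocked values (2 residual and 6.43 prior degrees of freedom) stand beside results whose call they change. Where nothing ties an array to a separate culture, p-values measure only the spread between arrays.

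The members and lists were chosen with earlier results of these data known. Named are members past the threshold in any comparison with or without the block, the 2 per role group with the largest change, and ATF4, ATF5, ATF3 and DDIT3; values of other members are given as ranges or to complete a group, and companion genes were picked for their role or their blocked call. Alternatives were blocking, the methods' t-test, fitting only the 4 arrays of a comparison, a variance prior with an intensity trend, centring on array medians, quantile normalization, leaving out dim probe sets, testing all probe sets or 1 a gene, a gene's other probe sets, and leaving out each array. Symbols of all 35 members equal those of RefSeq. Promoter windows come from RefSeq (GRCh38.p14), where 15 ATF4 targets and 14 synthetases had one, and PSPH, SHMT2, PYCR1, LARS1, VARS1 and YARS1 had none; sequences were printed only for members that passed the test in a comparison. Scripts used Python 3.11.15, NumPy 2.4.6, pandas 2.3.3, SciPy 1.17.1 and matplotlib 3.10.9.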

Additional observations from a re-analysis of the deposited data

Results flagged for a closer look

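For 5 of the 35 genes both shRNA2 arrays lay above, and both shRNA1 arrays below, both vector arrays, so that the shRNAs sat on opposite sides of the control. Of all 16098 probe sets, 1.12% had this order and 3.62% the reverse one. CTH differed between the shRNAs by 1.72 on the log2 scale (adjusted p = 0.0515 from limma, 0.011 with the replicate block), VLDLR by 0.77 (0.134 and 0.0462), EPRS1, the synthetase for glutamate and proline, by 0.63 (0.192 and 0.0836), ATF4 by 0.53 (0.192 and 0.112) and MARS1, the methionine synthetase, by 0.49 (0.217 and 0.127). EPRS1 was at 11.51 and 11.48 with shRNA2, 10.75 and 10.98 with shRNA1, and 11.06 and 11.43 in vector cells.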

How the results depend on the processing

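Over all named probe sets, 414 were called with shRNA2, 301 with shRNA1 and 1 between the shRNAs. The replicate block gave 1180, 535 and 370, the methods' t-test 2, 1 and 2 after Benjamini-Hochberg adjustment and 65, 38 and 46 at an unadjusted p under 0.001. For shRNA1, the 4 arrays compared gave 111 and all probe sets 195. Between the shRNAs, the 4 arrays gave 0, an intensity trend 15, centred arrays 2, all probe sets 8 and 1 probe set per gene 28.

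Of the ATF4 targets, 5 were called with shRNA2, which became 2 over all probe sets and 0 by the methods' t-test at both thresholds. The 2 called with shRNA1 became 0 with the 4 arrays, the t-test at both thresholds and all probe sets. Between the shRNAs 0 became 8 with the block, and 1 with an intensity trend or with 1 probe set per gene. Among synthetases the block called 1 with shRNA2, and the 1 called with shRNA1 became 0 with the 4 arrays, the t-test at both thresholds, quantile normalization and all probe sets. Centred arrays moved the medians between the shRNAs from 0.58 to 0.68 and from 0.46 to 0.56. The block changed no other call of a member than those printed in the report.

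Without 1 array, the totals ran from 6 to 392 with shRNA2, from 111 to 138 with shRNA1 and were 0 between the shRNAs. The ATF4 targets called ran from 0 to 4, from 0 to 1 and were 0, with medians from 0.083 to 0.24, from -0.26 to -0.19 and from 0.58 to 0.65. For synthetases the counts were 0 throughout, with medians from 0.027 to 0.20, from -0.27 to -0.067 and from 0.21 to 0.46. A fit without an array leaves 1 array in a group, which is assumed to vary like the others. DDIT4 with shRNA2 passed without vector replicate 2 (adjusted p = 0.0497, limma). No value that passed the test changed sign under a tried setting. The median of synthetases with shRNA2, 0.027, became -0.0081 with quantile normalization, and WARS1 between the shRNAs, at -0.09, became 0.05 with its other probe set. The 85 comparisons of single members called neither with nor without the block passed under no tried setting. With 2 arrays a group, and no detection call, a small or dim change may go undetected.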
